A study of Homo sapiens with 16 samples.

Results

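The 46 genes described here encode collagen chains, basement membrane proteins, the enzymes and chaperone that process collagen, and glycoproteins and proteoglycans of the extracellular matrix. They were taken as the rows of the count table whose symbol stood on a list of 46 matrix genes, and all 46 were found among its 26475 genes. By role, 15 belong to basement membranes, 6 are fibrillar collagen chains, 5 are chains of other collagens, 10 process collagen and 10 are matrix glycoproteins or proteoglycans.

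Collagen chains are hydroxylated on proline and lysine inside the cell, folded into helices with the help of the chaperone SERPINH1 (HSP47), secreted, and then cross-linked by lysyl oxidases. Basement membranes are thin sheets in which a network of collagen IV and a network of laminin are held together by nidogens and heparan sulfate proteoglycans. Melanoma cells secrete matrix proteins of their own, and cells that settle in the lung meet the basement membranes of its vessels.

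Poly-A RNA is labelled as coming from lung metastases of A375 MA2-Luc, an established human melanoma line that carries an activating BRAF mutation. All 16 libraries shared this line and the route, with 250000 cells injected behind the eye of NSG mice, a strain without T, B or natural killer cells that keeps its myeloid cells. The 4 groups, of 4 libraries each, came from mice on a ketogenic diet given inhibitors, mice on a ketogenic diet left untreated, mice on a high fat diet given inhibitors, and mice on a high fat diet left untreated. Inhibitors of BRAF-Kinase and MEK 1/2 were given by oral gavage 3 times a week for 5 weeks. The series text also speaks of culture of the line, and does not say if the metastatic cells were put in culture before their RNA was taken. The drugs are labelled by class only, a vehicle for the untreated groups is not named in the sources used here, and gavage itself cannot be told apart from the drugs. The labels speak of biological replicates but do not say whether each came from its own mouse, so p-values measure the spread between these libraries.

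Libraries held 37099876 to 77251525 estimated counts. Ribosomal RNA took 4.10% to 8.37% of the counts in ketogenic libraries with inhibitors, 15.2% to 33.7% in untreated ketogenic ones, 15.01% to 20.0% in high fat libraries with inhibitors and 21.7% to 50.01% in untreated high fat ones. Ketogenic inhibitor replicates 4 and 1 and untreated high fat replicate 4 were the libraries least like the rest of their group. Ketogenic inhibitor replicate 4 was the lowest of its group in 28 of the 45 genes tested, and untreated high fat replicate 4 in 26. The melanocyte lineage factor SOX10 lay at 726 to 934 CPM (counts scaled per library with TMM factors, the unit of all levels given here) and MITF at 99.1 to 141 CPM, while the pigment genes PMEL, MLANA, TYR, DCT and TYRP1 stayed at or below 5.39 CPM. The lists of markers of other cells were uneven under their human symbols. The fibroblast genes THY1, DPT, MFAP5 and TCF21 reached at most 0.173 CPM, the endothelial genes CDH5 and EMCN 0.111 CPM, the leukocyte gene PTPRC 0.691 CPM and the smooth muscle genes DES and CNN1 0.291 CPM. On the same lists PDGFRB lay at 8.52 to 29.8 CPM, FAP at 3.25 to 19.02, PDGFRA at 3.47 to 9.35, ACTA2 at 11.2 to 67.1, NOTCH3 at 4.34 to 26.4, ADGRE1 at 12.3 to 18.7, LYZ at 0.325 to 4.76 and the endothelial ESAM at 0.727 to 2.14 CPM. In such bulk samples fewer cells of a type and less RNA per cell cannot be told apart, and any removal of mouse reads is not given in the sources used here.

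The promoter windows below, 250 bases before to 50 after the annotated start, are shown for genes on which the results turn. COL4A1 and COL4A2 encode the main pair of collagen IV chains and start head to head. COL5A1 was called in 3 of the 4 comparisons between groups, PLOD1 in 3 and P4HA1 in 2. Sequences are from RefSeq (GRCh38.p14), 5′ to 3′ on each gene's own strand. Capitals mark 5 motifs, each searched on both strands, none of which contains another. The TATA box was spelled TATAAA. The CCAAT box carries its letters in its name. The GC box was spelled GGGCGG. The AP-1 site was spelled TGANTCA. The core of the hypoxia response element, bound by hypoxia-inducible factors, was spelled ACGTG and also, as a variant, GCGTG.
COL4A1 (chr13:110307108-110307407, minus strand): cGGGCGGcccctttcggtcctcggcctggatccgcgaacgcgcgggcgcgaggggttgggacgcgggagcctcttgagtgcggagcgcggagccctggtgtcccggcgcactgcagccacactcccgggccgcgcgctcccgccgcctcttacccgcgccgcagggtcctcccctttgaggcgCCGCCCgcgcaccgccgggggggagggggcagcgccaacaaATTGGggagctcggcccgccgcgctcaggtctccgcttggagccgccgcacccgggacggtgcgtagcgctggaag
COL4A2 (chr13:110307034-110307333, plus strand): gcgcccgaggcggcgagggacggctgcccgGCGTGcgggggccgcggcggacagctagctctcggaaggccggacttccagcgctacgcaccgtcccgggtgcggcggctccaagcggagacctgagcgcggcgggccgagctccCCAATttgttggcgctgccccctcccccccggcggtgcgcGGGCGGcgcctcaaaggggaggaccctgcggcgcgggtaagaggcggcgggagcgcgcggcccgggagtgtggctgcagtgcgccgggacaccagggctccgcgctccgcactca
COL5A1 (chr9:134641553-134641852, plus strand): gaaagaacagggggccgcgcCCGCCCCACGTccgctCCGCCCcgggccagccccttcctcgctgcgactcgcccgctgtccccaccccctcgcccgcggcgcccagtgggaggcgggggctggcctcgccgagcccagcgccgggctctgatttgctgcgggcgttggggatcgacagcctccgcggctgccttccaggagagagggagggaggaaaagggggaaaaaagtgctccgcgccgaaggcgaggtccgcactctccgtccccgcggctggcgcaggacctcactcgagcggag
PLOD1 (chr1:11934467-11934766, plus strand): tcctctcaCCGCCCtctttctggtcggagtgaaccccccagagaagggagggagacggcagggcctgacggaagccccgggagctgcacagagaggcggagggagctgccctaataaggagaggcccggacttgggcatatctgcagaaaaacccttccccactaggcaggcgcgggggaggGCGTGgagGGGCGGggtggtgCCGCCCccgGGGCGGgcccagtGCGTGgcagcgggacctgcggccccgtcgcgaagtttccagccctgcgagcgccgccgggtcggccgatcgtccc
P4HA1 (chr10:73096817-73097116, minus strand): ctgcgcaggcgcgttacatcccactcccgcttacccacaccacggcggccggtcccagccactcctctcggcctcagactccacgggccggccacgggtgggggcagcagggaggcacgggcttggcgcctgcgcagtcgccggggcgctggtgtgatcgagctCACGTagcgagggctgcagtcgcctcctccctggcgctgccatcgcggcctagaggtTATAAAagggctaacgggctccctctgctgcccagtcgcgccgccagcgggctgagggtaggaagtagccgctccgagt
The start sites of COL4A1 and COL4A2 lie 127 bases apart, and their windows share 226 bases read from opposite strands. A single CCAAT box stands in this shared stretch. Of these 5 windows only that of P4HA1 holds a TATA box. Promoter windows were found for 35 of the 46 genes. The GC box occurred in 24 of these 35 windows (68.6%), against 45% of all 35116 windows of the table. The CCAAT box was in 11 of 35 (31.4%), against 34.6% of all. The hypoxia core was in 14 of 35 (40.0%), against 48.4% of all, the TATA box in 2 of 35 (5.71%), against 11.5%, and the AP-1 site in 0 of 35, against 7.71%.

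Expression of the set spanned several orders of magnitude. SPARC, a secreted glycoprotein that binds collagen, stood highest at 1409 ± 221 CPM per kilobase of exon (mean and SD of 16 libraries). The next levels, in CPM per kilobase, were those of COL9A3 (131), a fibril-associated collagen chain of cartilage, the laminin chain LAMB1 (115), NID1 (113), which links laminin to collagen IV, and the lysyl hydroxylase PLOD3 (113). Basement membrane genes of high level were also COL4A2 (96.4 CPM per kilobase), LAMC1 (94.3), LAMA4 (76.5) and COL4A1 (73.7). The chains of the main collagens of connective tissue were low, with 0.105 CPM per kilobase for COL1A1, 0.153 for COL1A2 and 0.368 for COL3A1. The higher fibrillar chains were COL11A1 at 58.01 CPM per kilobase and COL5A2 at 50.5. At the low end stood COL4A6 (0.0481), the fibrillin FBN2 (0.0134) and the lysyl oxidase LOXL1, whose 17 counts over all 16 libraries were too few for a test. The other 45 genes were tested.

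**Figure D1:**
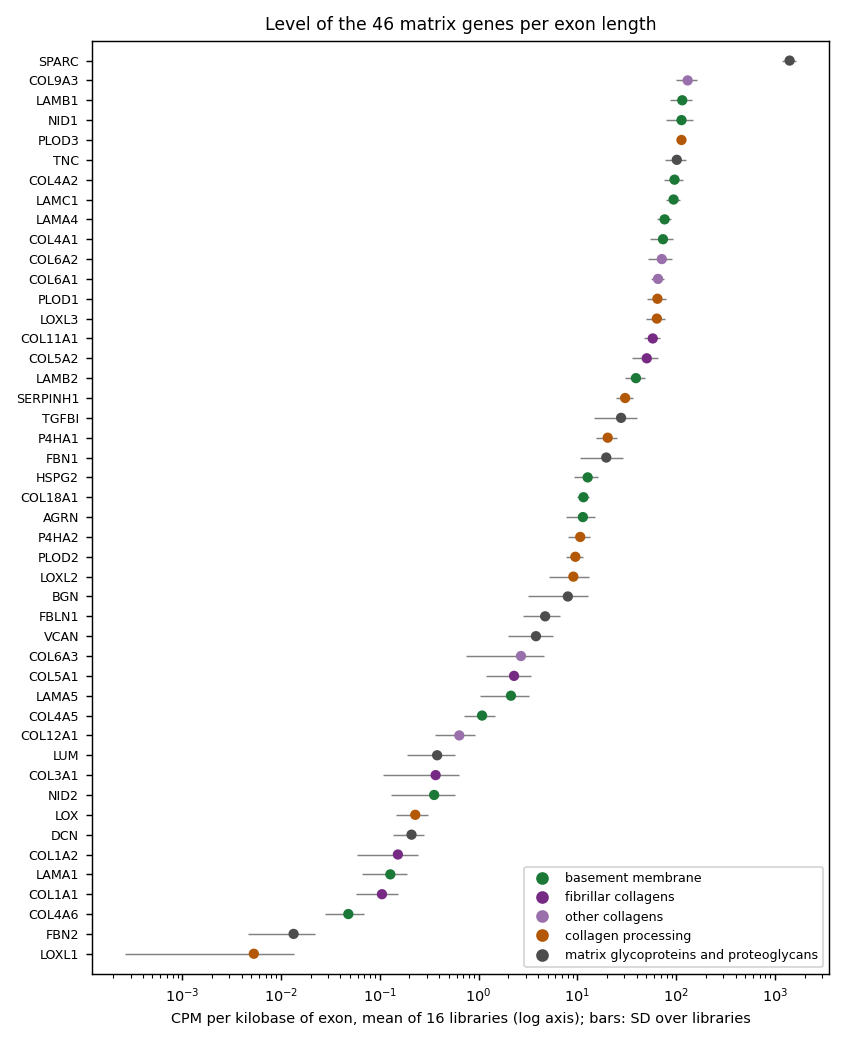
Mean level of each of the 46 genes in CPM per kilobase of exon (log axis), over 16 libraries, with the SD over libraries as bars and colours for the 5 roles. SPARC stands at 1409, COL1A1 at 0.105 and LOXL1 at 0.00531 CPM per kilobase; the lower bar of LOXL1, whose SD exceeds its mean, is cut short.

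The inhibitors were compared first on the high fat diet. Inhibitor-treated metastases had less RNA of the laminin chains LAMA5, LAMB1 and LAMB2, both nidogens, COL5A1, COL5A2, COL6A1, COL6A2 and several proteoglycans. Of 45 genes tested, 20 fell (21.7% of all 16012 genes tested fell), 3 rose (20.6% of all genes) and 22 did not pass (42.3% of all genes changed in either direction; edgeR quasi-likelihood test, adjusted p under 0.05). The median log2 fold change of the 45 was -0.33, against -0.03 over all genes tested, and 35 of 45 were negative. Without adjustment 25 of 45 had p under 0.05, against 51.1% of all genes. The 2 groups did not overlap in 17 of the 45, against 44.7% of all genes. The falls comprised 8 of 15 basement membrane genes, 2 of 6 fibrillar chains, 2 of 5 other collagen chains, 3 of 9 processing genes and 5 of 10 glycoproteins and proteoglycans. The rises were LAMA1, COL3A1 and PLOD2. Scaled by library size alone, in which ribosomal RNA counts, the median of all genes was 0.25, and 6 of the 45 rose and 7 fell. Tested against a 1.5-fold minimum, 5 genes passed here (COL5A1, VCAN, FBLN1, LAMA5 and LAMA1). Without high fat inhibitor replicate 3 the 23 calls became 15, and without the 3 libraries of over 30% ribosomal RNA they became 12. Those 3 were untreated high fat replicates 2 and 3 and untreated ketogenic replicate 2. Their removal left the untreated high fat group with replicates 1 and 4. A smaller group and ribosomal RNA cannot be told apart in these losses.

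Genes used as markers of pericytes and smooth muscle moved with this comparison. The 8 on the list summed to 262 to 404 CPM with inhibitors and 346 to 517 CPM in untreated high fat libraries, of which MCAM, a gene that melanoma cells express too, made 237.5 to 417.8 CPM over all 16 libraries. Among the 5 of them that were tested, 3 fell. ACTA2 averaged 16.3 CPM with inhibitors, against 59.1 CPM untreated (adjusted p = 6.85e-05), NOTCH3 5.93 CPM with inhibitors, against 13.6 CPM untreated (adjusted p = 0.00259), and RGS5 1.82 CPM with inhibitors, against 3.23 CPM untreated (adjusted p = 0.031). The 9 fibroblast markers summed to 31.1 to 44.1 CPM with inhibitors and 37.5 to 52.1 CPM untreated, of which PDGFRB fell to 14.3 CPM, against 27.1 CPM untreated (adjusted p = 0.00138), and PI16 fell at under 1 CPM. Of the other lists tested, 1 of 10 melanoma genes fell (DCT) and 1 of 6 endothelial genes rose (ROBO4). Of 5 leukocyte genes 1 rose (LYZ), and the 1 lung epithelial gene tested fell (AGER). Of the 6 genes on the blood and plasma list, HBB, HBA2, ALB and ALAS2 were not tested. The other genes of that list, HBA1 and TTR, rose (TTR on the ketogenic diet too). HBA1 reached at most 1.02 CPM in any library and TTR 75.2 CPM. High fat inhibitor replicate 1 held the highest traces of PTPRC, ALB and SFTPB among all libraries. Which cells these marker reads came from, the melanoma cells or others, was not tested. Any part of other cells in the matrix results was not tested either.

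On the ketogenic diet COL4A1, COL4A2, COL5A1, COL5A2, VCAN and the hydroxylases PLOD1 and P4HA1 were lower with inhibitors. Of 45 genes, 7 fell (0.887% of all 16012 genes fell, 0.856% rose and 1.74% did either) and 38 did not pass in the edgeR test. The median log2 fold change was -0.44, against 0.01 over all genes tested, and 36 of 45 were negative. Without adjustment 24 of the 45 had p under 0.05, all of them lower with inhibitors, while 18.7% of all genes had such a p in either direction. By role, 2 of 15 basement membrane genes fell, 2 of 6 fibrillar chains, 2 of 9 processing genes and 1 of 10 glycoproteins and proteoglycans. The groups did not overlap in 15 of 45, against 10.3% of all genes. With the share of ribosomal RNA as a covariate the edgeR test called 0 of the 45 (14 had an unadjusted p under 0.05), DESeq2 called 16 without it and limma voom 18. An edgeR fit of only the 2 groups compared called 1 of the 45 (20 with an unadjusted p under 0.05). A 1.5-fold minimum left 0 (6 with an unadjusted p under 0.05). The ribosomal share was at most 8.37% with inhibitors and at least 15.2% untreated on this diet. The covariate fit therefore cannot separate it from the inhibitors. The 7 became 11 without untreated high fat replicate 4, 4 without untreated ketogenic replicate 1 or 2 or ketogenic inhibitor replicate 4, 3 without untreated ketogenic replicate 4, 3 without the libraries over 30% ribosomal RNA, and 2 (both lower) with scaling by library size alone, where the median of all genes was 0.28. Pericyte and smooth muscle markers summed to 385 to 423 CPM with inhibitors and 325 to 426 CPM untreated here, and fibroblast markers to 20.5 to 40.9 CPM with inhibitors and 28.6 to 38.4 CPM untreated.

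**Figure D2:**
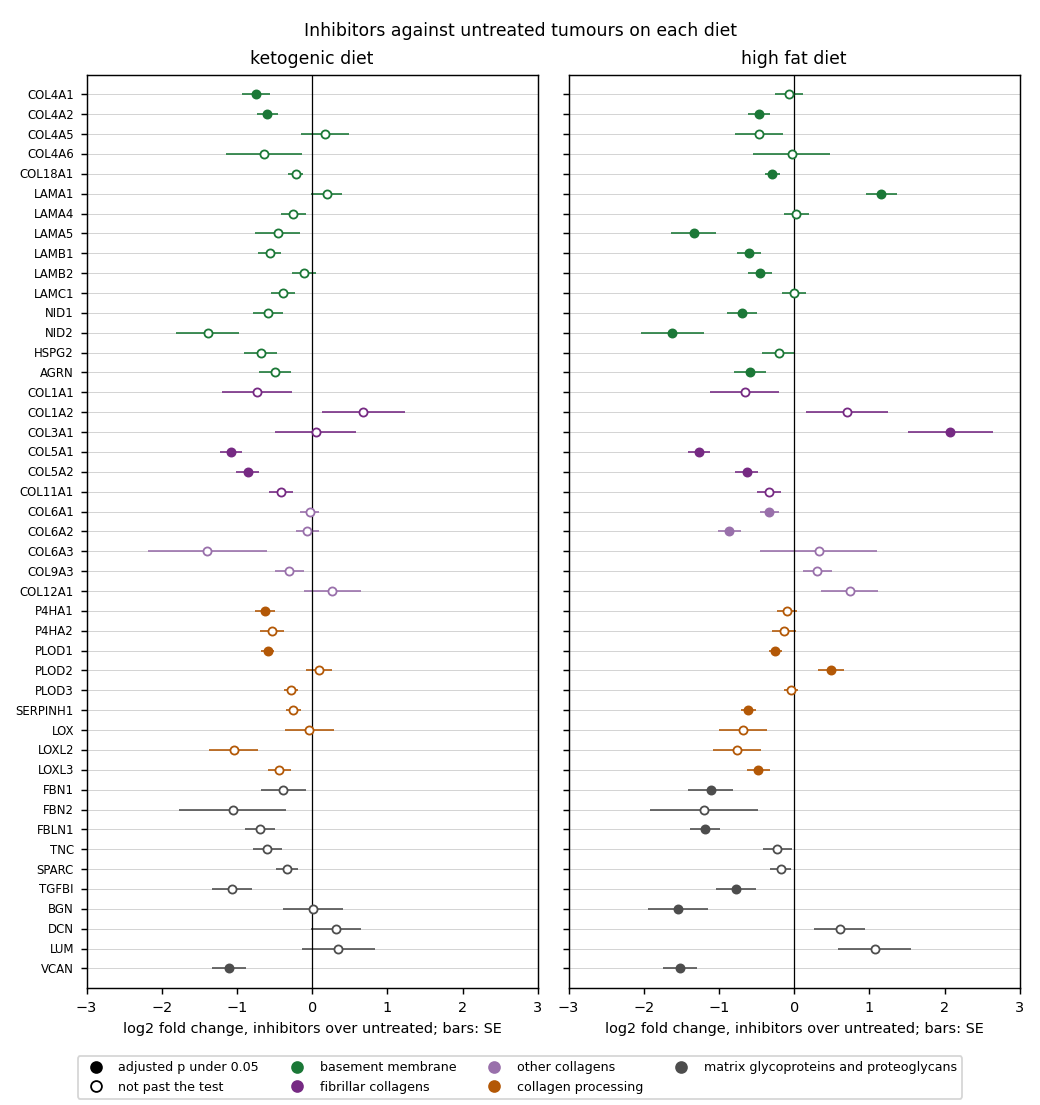
Log2 fold change of inhibitors over untreated metastases for the 45 tested genes on the ketogenic (left) and high fat diet (right), with SE bars; filled points have an adjusted p under 0.05. Most points lie left of 0 on both diets, 7 of them filled on the ketogenic diet and 20 on the high fat diet, where LAMA1, COL3A1 and PLOD2 are filled on the right.

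Between untreated metastases, the prolyl hydroxylase subunits P4HA1 and P4HA2 and the lysyl hydroxylase PLOD1 were higher on the ketogenic diet, while PLOD2 and PLOD3 did not pass. Of 45 genes, 3 rose (7.99% of all genes rose), 2 fell (5.51% of all genes fell) and 40 did not pass, and the groups did not overlap in 12, against 25.5% of all genes. The falls were those of COL5A1 and BGN, and both shares of the 45 lie below those of all genes. The median log2 fold change was -0.01, against -0.02 over all genes. Scaling by library size alone, which put the median of all genes at 0.15, gave 5 calls, all of them rises. The 5 calls became 3 without untreated ketogenic replicate 1 or 2, high fat inhibitor replicate 2 or 4 or untreated high fat replicate 1 or 3, 10 without ketogenic inhibitor replicate 1 and 11 without ketogenic inhibitor replicate 4. Leaving out those over 30% ribosomal RNA gave 0 by edgeR (9 with an unadjusted p under 0.05, where 30.7% of all genes had one in the fit of all libraries), against 12 by DESeq2 and 18 by limma voom with all libraries. ACTA2 (35.2 CPM on the ketogenic diet, against 59.1 CPM on the high fat diet) and PDGFRB (16.3 CPM on the ketogenic diet, against 27.1 CPM on the high fat diet) fell with the diet as well, and their part in the matrix results was not tested. Under inhibitors the diets differed in 1 of 45 genes, LAMA1, which was lower on the ketogenic diet (0.119% of all genes were lower). Groups did not overlap in 4 genes there, against 7.14% of all genes. A contrast of the effect of the inhibitors on the ketogenic diet minus that on the high fat diet passed for 1 of 45 genes, COL6A2, which was positive, while 9.02% of all genes passed (4.36% positive and 4.66% negative). This count was 2 without untreated ketogenic replicate 4 or untreated high fat replicate 2 or 4, 3 without ketogenic inhibitor replicate 2 or 3 and 4 without ketogenic inhibitor replicate 4. By role, the processing genes had a median log2 difference of 0.20 between the diets in untreated metastases, with 8 of 9 positive and 3 past the test, and the basement membrane genes one of -0.23, with 4 of 15 positive. The rise of processing genes was limited to those listed here. Another 22 collagen processing genes had a median of -0.02 in that comparison. Of these 9 were positive and 13 negative, and 1 rose and 3 fell past the test. Comparisons that name the same group share its libraries, so they are not independent.

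**Figure D3:**
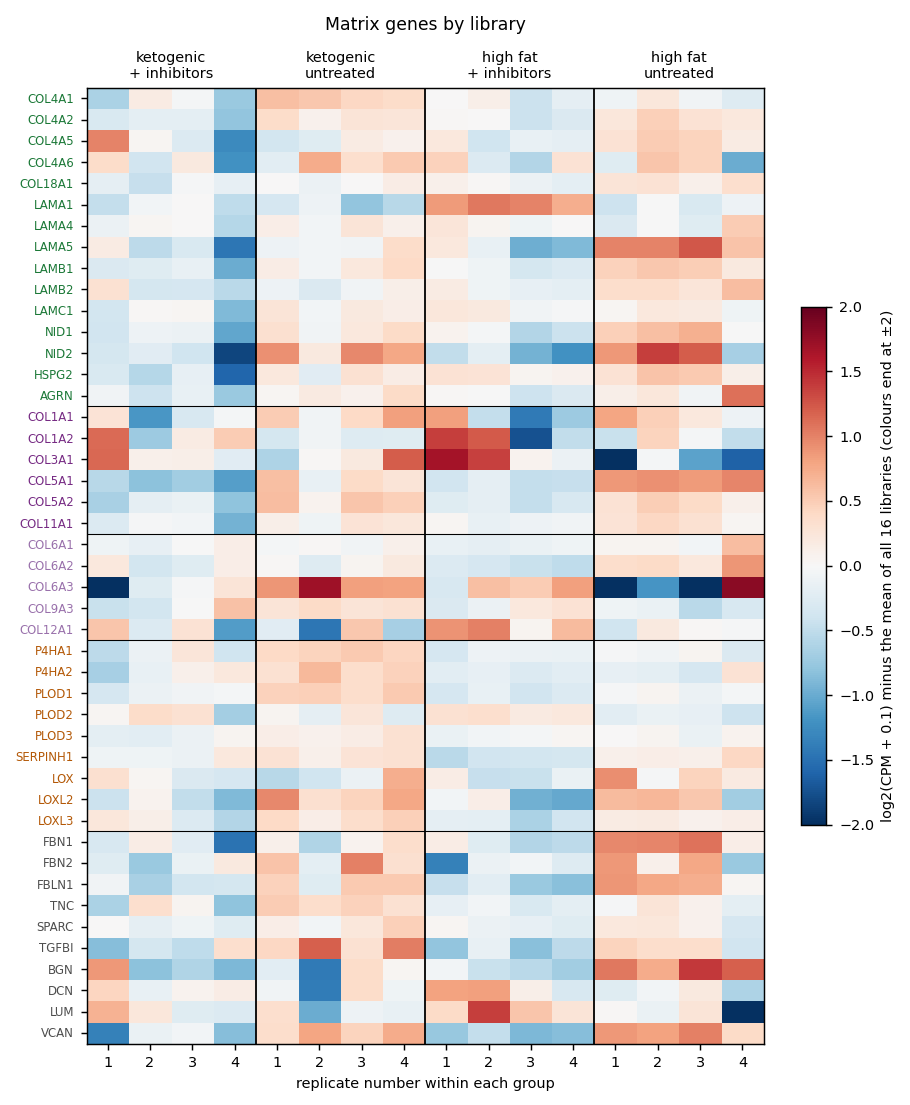
Log2(CPM + 0.1) of the 45 tested genes in each library, minus the gene's mean over 16 libraries, in 4 blocks of 4 libraries, left to right ketogenic with inhibitors, ketogenic untreated, high fat with inhibitors and high fat untreated. Ketogenic inhibitor replicate 4 lies below the mean in most rows and is the lowest of its group in 28, and COL6A3 varies widely within groups.

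Among basement membrane genes, the collagen IV pair COL4A1 (chromosome 13, 110148963 to 110307233) and COL4A2 (chromosome 13, 110305812 to 110513209; GENCODE 29, hg38) was described together because the genes start head to head. In GENCODE 29 the 2 genes overlap at their starts, whereas their RefSeq start sites diverge, 127 bases apart. Neither annotation nor strand setting of the counting is given in the sources used here, so reads of that overlap may be split between them. COL4A1 had 679, 1175, 1022 and 628 CPM in ketogenic metastases with inhibitors, against 1600.2, 1524, 1394 and 1356 CPM in untreated ketogenic ones. COL4A1 reached 1058, 1143, 778 and 923 CPM in high fat metastases with inhibitors, against 988, 1226, 1001 and 876 CPM in untreated high fat ones. The untreated ketogenic libraries were all above every library of the other 3 groups. COL4A1 fell with inhibitors on the ketogenic diet (log2 -0.75, SE 0.18, adjusted p = 0.0466), and this call was lost without untreated ketogenic replicate 1, 2, 3 or 4 or ketogenic inhibitor replicate 1 or 4 (over 8 omissions log2 -0.92 to -0.62, adjusted p up to 0.136). COL4A1 also lost the call under 7 of 13 other settings, among them library size alone and only the 2 groups compared. For the high fat diet its difference did not pass (log2 -0.07, SE 0.18, adjusted p = 0.786). COL4A2 had 1462, 1589, 1586 and 1047 CPM in ketogenic metastases with inhibitors, against 2330.0, 1931, 2166 and 2153 CPM in untreated ketogenic ones. COL4A2 reached 1844, 1821, 1349 and 1487 CPM in high fat metastases with inhibitors, against 2128, 2536, 2224 and 2089 CPM in untreated high fat ones. On both diets the inhibitor-treated libraries lay below the untreated ones with no overlap. COL4A2 fell on the ketogenic diet (log2 -0.59, SE 0.14, adjusted p = 0.043) and on the high fat diet (log2 -0.47, SE 0.14, adjusted p = 0.0151). The ketogenic call was lost without untreated ketogenic replicate 1, 2, 3 or 4 or ketogenic inhibitor replicate 2 or 4 (over 8 omissions log2 -0.65 to -0.47, adjusted p up to 0.133), and the high fat call without untreated high fat replicate 2 or high fat inhibitor replicate 3 (over 8 omissions log2 -0.53 to -0.39, adjusted p up to 0.056). Of 13 other settings, 7 lost the ketogenic call and 4 the high fat call. Library size alone and ribosomal RNA as a covariate lost both.

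COL4A5 and COL4A6, minor collagen IV chains that also start head to head on chromosome X, with start sites 380 bases apart in RefSeq, were low. COL4A5 had 24.5, 12.6, 10.1 and 5.00 CPM in ketogenic metastases with inhibitors, against 9.40, 10.3, 13.7 and 12.9 CPM in untreated ketogenic ones. COL4A5 reached 14.2, 9.28, 10.9 and 10.7 CPM in high fat metastases with inhibitors, against 14.9, 17.3, 16.6 and 13.7 CPM in untreated high fat ones. Its 4 groups overlapped, with the highest and the lowest value in the same group. COL4A6 had 0.556, 0.293, 0.483 and 0.122 CPM in ketogenic metastases with inhibitors, against 0.340, 0.750, 0.545 and 0.630 CPM in untreated ketogenic ones. COL4A6 reached 0.6001, 0.321, 0.239 and 0.521 CPM in high fat metastases with inhibitors, against 0.332, 0.650, 0.598 and 0.157 CPM in untreated high fat ones. Neither gene passed in any of the 5 comparisons, at a level of under 1 CPM for COL4A6. COL18A1, whose collagen releases endostatin, fell slightly with inhibitors on the high fat diet (log2 -0.29, SE 0.10, adjusted p = 0.0269) and lost this call without untreated high fat replicate 1, 2 or 4 or high fat inhibitor replicate 3 or 4 (over 8 omissions log2 -0.34 to -0.24, adjusted p up to 0.0912). Scaling by library size alone or leaving out the libraries over 30% ribosomal RNA lost it too.

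The laminin chains moved unequally. LAMA1 (chromosome 18, 6941744 to 7117814), an alpha chain known from early embryos and epithelia, was the only basement membrane gene to rise. LAMA1 had 1.31, 1.79, 1.87 and 1.28 CPM in ketogenic metastases with inhibitors, against 1.45, 1.73, 1.03 and 1.24 CPM in untreated ketogenic ones. LAMA1 reached 3.42, 3.99, 3.80 and 3.16 CPM in high fat metastases with inhibitors, against 1.37, 1.84, 1.48 and 1.73 CPM in untreated high fat ones. All 4 high fat libraries with inhibitors stood above the other 12. LAMA1 rose with inhibitors on the high fat diet (log2 1.16, SE 0.21, adjusted p = 0.000548), and under inhibitors it was lower on the ketogenic than on the high fat diet (log2 -1.20, SE 0.21, adjusted p = 0.0351). The diet call was lost without high fat inhibitor replicate 2, 3 or 4 or ketogenic inhibitor replicate 1 or 3 (over 8 omissions log2 -1.30 to -1.12, adjusted p up to 0.132), and also without untreated ketogenic replicate 1 or untreated high fat replicate 2, which are in neither group compared. LAMA1 also lost this diet call under 6 of 13 other settings, among them library size alone and only the groups compared. The difference of its inhibitor effect between diets was -0.97 (SE 0.30) and did not pass (adjusted p = 0.0513). At 3.59 ± 0.375 CPM with inhibitors on the high fat diet, against 1.61 ± 0.216 untreated (SD, n = 4 each), it remained one of the low genes of the set.

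LAMA5, an alpha chain of epithelial and vascular basement membranes, changed the other way. It had 31.3, 24.2, 13.6 and 14.6 CPM in high fat metastases with inhibitors, against 54.02, 53.6, 63.7 and 40.1 CPM in untreated ones, and fell without overlap (log2 -1.34, SE 0.30, adjusted p = 0.00283). The beta chain LAMB1 fell on the high fat diet, with 805 ± 88.8 CPM with inhibitors against 1221 ± 127 CPM untreated (SD, n = 4 each; log2 -0.60, SE 0.16, adjusted p = 0.00677). The LAMB1 call was lost with scaling by library size alone and without the libraries over 30% ribosomal RNA. LAMB2 fell as well (log2 -0.46, SE 0.16, adjusted p = 0.0278), a call lost without untreated high fat replicate 4 or high fat inhibitor replicate 2, 3 or 4 (over 8 omissions log2 -0.54 to -0.37, adjusted p up to 0.0783). As with LAMB1, this call was also lost with scaling by library size alone and without the libraries over 30% ribosomal RNA. The gamma chain LAMC1 and the alpha chain LAMA4 did not pass, with log2 -0.0018 (SE 0.16) for LAMC1 and 0.03 (SE 0.17) for LAMA4. None of these 5 laminin genes passed on the ketogenic diet, where LAMB1 came nearest (log2 -0.57, SE 0.16, adjusted p = 0.0799).

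Both nidogens fell with inhibitors on the high fat diet. NID1 had 667, 617, 423 and 470.5 CPM with inhibitors, against 887, 963, 1039 and 635 CPM untreated (log2 -0.69, SE 0.20, adjusted p = 0.0126). NID2, at a far lower level, had 1.29, 1.62, 0.926 and 0.748 CPM with inhibitors, against 3.49, 5.05, 4.47 and 1.14 CPM untreated (log2 -1.62, SE 0.42, adjusted p = 0.00618). In both genes untreated high fat replicate 4 was the lowest of its group and lay among the inhibitor libraries. Without the libraries over 30% ribosomal RNA both calls were lost, that of NID1 also with scaling by library size alone and that of NID2 with ribosomal RNA as a covariate. On the ketogenic diet neither passed, although their groups did not overlap (NID1 log2 -0.59, adjusted p = 0.147; NID2 log2 -1.39, adjusted p = 0.0972).

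Of the heparan sulfate proteoglycans, HSPG2 (perlecan; chromosome 1, 21822245 to 21937297) did not pass in any comparison. HSPG2 had 178, 147, 197 and 72.6 CPM in ketogenic metastases with inhibitors, against 252, 187, 270.5 and 243 CPM in untreated ketogenic ones. HSPG2 reached 268, 265, 228 and 233 CPM in high fat metastases with inhibitors, against 267, 327, 313 and 237 CPM in untreated high fat ones. Ketogenic libraries with inhibitors, all at or below 197 CPM, were below all high fat ones with inhibitors, at a log2 difference of -0.74 (SE 0.22, adjusted p = 0.162). AGRN (agrin) fell with inhibitors on the high fat diet (log2 -0.59, SE 0.21, adjusted p = 0.0367), a call lost without untreated high fat replicate 4 or high fat inhibitor replicate 3 or 4 (over 8 omissions log2 -0.71 to -0.26, adjusted p up to 0.18). The call was also lost under 5 of 13 other settings, among them library size alone and only the groups compared. For AGRN untreated high fat replicate 4 had 252 CPM, against 112 to 138 CPM in the other 3.

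Among fibrillar collagens, the collagen V chains COL5A1 and COL5A2 fell with inhibitors on both diets. Collagen V starts the assembly of fibrils and sets their width. Its chain COL5A3, which is not among the 46 genes, did not pass on the ketogenic diet (17.9 CPM with inhibitors, against 13.3 CPM untreated) or on the high fat diet (13.95 CPM with inhibitors, against 10.5 CPM untreated). COL5A1 had 15.7, 12.9, 14.1 and 10.6 CPM in ketogenic metastases with inhibitors, against 35.01, 20.7, 29.96 and 27.4 CPM in untreated ketogenic ones. COL5A1 reached 17.7, 20.4, 16.5 and 16.7 CPM in high fat metastases with inhibitors, against 41.9, 43.3, 41.4 and 45.2 CPM in untreated high fat ones. COL5A1 (chromosome 9, 134641774 to 134844843) was lower with inhibitors in every library on both diets, and untreated high fat libraries had its highest values. It fell on the ketogenic diet (log2 -1.08, SE 0.14, adjusted p = 0.00163) and on the high fat diet (log2 -1.27, SE 0.14, adjusted p = 2.64e-05), where it had the smallest p of the set. It was also lower in untreated ketogenic than in untreated high fat metastases (log2 -0.60, SE 0.14, adjusted p = 0.0127). These 3 calls held with any 1 of the 8 libraries compared left out. The ketogenic inhibitor call was lost when ribosomal RNA entered as a covariate, and the diet call without the libraries over 30% ribosomal RNA and with scaling by library size alone.

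COL5A2 had 229.8, 318, 327 and 207 CPM in ketogenic metastases with inhibitors, against 553, 379, 529 and 499.8 CPM in untreated ketogenic ones. COL5A2 reached 304, 317, 258 and 289 CPM in high fat metastases with inhibitors, against 442, 509, 469 and 389 CPM in untreated high fat ones. COL5A2 (chromosome 2, 189031896 to 189225312) showed no overlap between inhibitor and untreated libraries on either diet. It fell on the ketogenic diet (log2 -0.86, SE 0.15, adjusted p = 0.0109) and on the high fat diet (log2 -0.63, SE 0.15, adjusted p = 0.00406), and both calls held with any 1 library compared left out. Both were lost with scaling by library size alone, and the ketogenic one also with ribosomal RNA as a covariate and in a fit of only the 2 groups compared. COL11A1, a related chain that can join collagen V chains in one molecule, did not pass (log2 -0.42, SE 0.16, adjusted p = 0.179 on the ketogenic diet; log2 -0.33, SE 0.16, adjusted p = 0.1 on the high fat diet), although its high fat groups did not overlap.

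COL3A1, the chain of collagen III, a main fibrillar collagen of vessels and lung, rose with inhibitors on the high fat diet at a low level. It had 6.46, 5.26, 2.09 and 1.82 CPM with inhibitors, against 0.348, 1.93, 0.885 and 0.577 CPM untreated (log2 2.08, SE 0.56, adjusted p = 0.00817), and the groups overlapped. Ketogenic libraries had 1.68 to 4.52 CPM with inhibitors, against 1.25 to 4.70 CPM untreated. That difference did not pass (log2 0.04, SE 0.53, adjusted p = 0.974). The 2 high libraries, high fat inhibitor replicates 1 and 2, also held the highest COL1A2 values of their group, at 3.96, 3.55, 0.367 and 1.01 CPM over the 4. COL1A1 and COL1A2 did not pass in any comparison. Replicate 1 is also the library with the most PTPRC, ALB and SFTPB, and the part of other cells in these values was not tested. Without it COL3A1 still passed (log2 1.72 was the lowest value with any 1 library left out, adjusted p up to 0.0267), and without untreated high fat replicate 2 its log2 was 2.71.

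**Figure D4:**
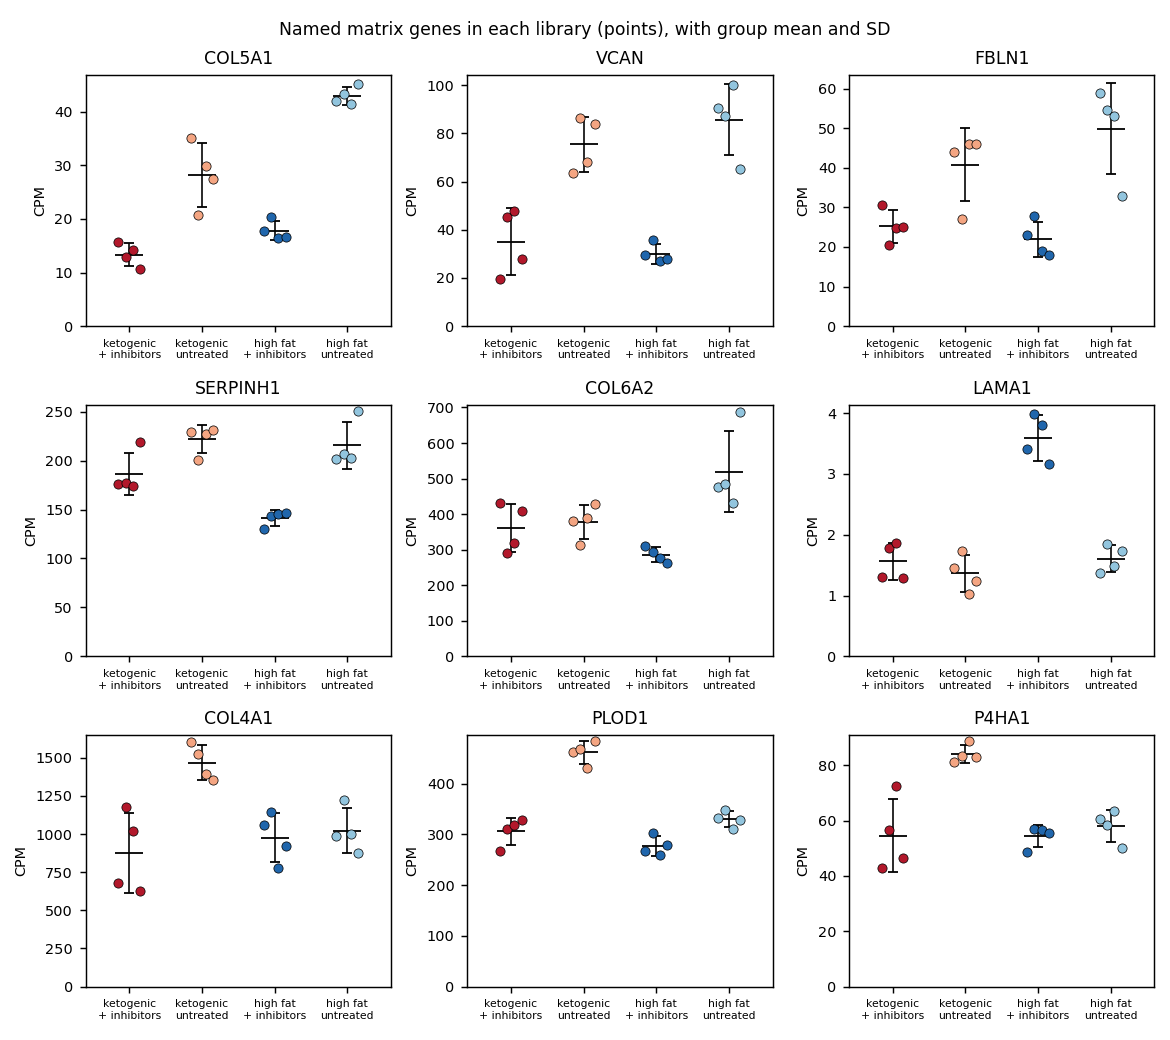
CPM of 9 genes in each of 16 libraries (points), with the group mean and SD (bars), linear axes from 0; in each panel from left to right ketogenic with inhibitors, ketogenic untreated, high fat with inhibitors and high fat untreated. COL5A1 and VCAN are lower with inhibitors on both diets without overlap, LAMA1 is high in high fat metastases with inhibitors only, and COL4A1, PLOD1 and P4HA1 are highest in untreated ketogenic ones.

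Collagen VI forms beaded filaments near basement membranes from 3 chains. COL6A2 had 430.5, 289.5, 318 and 408 CPM in ketogenic metastases with inhibitors, against 381, 313, 390.2 and 428 CPM in untreated ketogenic ones. COL6A2 reached 310.0, 295, 275 and 262 CPM in high fat metastases with inhibitors, against 476, 486, 431 and 686 CPM in untreated high fat ones. All 4 high fat libraries with inhibitors were below every untreated library of either diet. COL6A2 (chromosome 21, 46098097 to 46132849) fell with inhibitors on the high fat diet (log2 -0.86, SE 0.16, adjusted p = 0.000511) and did not pass on the ketogenic diet (log2 -0.07, SE 0.15, adjusted p = 0.858). The difference of these effects passed (log2 0.80, SE 0.22, adjusted p = 0.0349) and was lost without untreated high fat replicate 1 or high fat inhibitor replicate 2, 3 or 4 or untreated ketogenic replicate 1, 2 or 3 or ketogenic inhibitor replicate 1 (over 16 omissions log2 0.64 to 0.89, adjusted p up to 0.0821). It was also lost under 5 of 12 other settings, among them library size alone and a ribosomal RNA covariate. COL6A1, on the same chromosome, fell on the high fat diet (log2 -0.33, SE 0.13, adjusted p = 0.0418) and lost this call without untreated high fat replicate 4 or high fat inhibitor replicate 1, 2, 3 or 4 (over 8 omissions log2 -0.40 to -0.16, adjusted p up to 0.17). The COL6A1 call was also lost under 5 of 13 other settings, among them library size alone.

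COL6A3 did not pass in any comparison. It had 9.38, 32.8, 38.3 and 46.5 CPM in ketogenic metastases with inhibitors, against 71.4, 126, 68.4 and 68.2 CPM in untreated ketogenic ones. COL6A3 reached 31.2, 58.7, 55.05 and 68.4 CPM in high fat metastases with inhibitors, against 9.34, 17.1, 7.56 and 136 CPM in untreated high fat ones. Among untreated high fat libraries replicate 4 was high and the other 3 low. The fibril-associated chains COL9A3 and COL12A1 did not pass in any of the 5 comparisons; COL9A3 had 763 ± 32.1 CPM in untreated ketogenic metastases, against 516 ± 72.1 CPM in untreated high fat ones (SD, n = 4 each; log2 0.57, SE 0.19, adjusted p = 0.0588), without overlap.

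Among processing genes, the prolyl hydroxylase subunits and PLOD1 were highest in untreated ketogenic metastases. PLOD1 had 268, 310.1, 319 and 329 CPM in ketogenic metastases with inhibitors, against 463, 469, 431 and 485 CPM in untreated ketogenic ones. PLOD1 reached 267, 303, 259 and 280.1 CPM in high fat metastases with inhibitors, against 332, 349, 311 and 329 CPM in untreated high fat ones. Every untreated ketogenic library had more PLOD1 (chromosome 1, 11934205 to 11975538), a lysyl hydroxylase, than any library of the other 3 groups. PLOD1 fell with inhibitors on the ketogenic diet (log2 -0.59, SE 0.09, adjusted p = 0.00364) and rose with the ketogenic diet in untreated metastases (log2 0.48, SE 0.09, adjusted p = 0.00444), and both calls held with any 1 library compared left out. The inhibitor call was lost with scaling by library size alone, with ribosomal RNA as a covariate and in a fit of only the 2 groups compared, and the diet call without the libraries over 30% ribosomal RNA. The fall on the high fat diet was smaller (log2 -0.25, SE 0.09, adjusted p = 0.0324), turned to 0.02 with scaling by library size alone (adjusted p = 0.934), and was lost without untreated high fat replicate 1 or 2 or high fat inhibitor replicate 1, 3 or 4 (over 8 omissions log2 -0.29 to -0.22, adjusted p up to 0.0948). Without the libraries over 30% ribosomal RNA or with ribosomal RNA as a covariate it was lost too.

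P4HA1 had 42.8, 56.5, 72.4 and 46.3 CPM in ketogenic metastases with inhibitors, against 81.2, 83.4, 88.6 and 83.02 CPM in untreated ketogenic ones. P4HA1 reached 48.7, 56.9, 56.7 and 55.6 CPM in high fat metastases with inhibitors, against 60.5, 58.4, 63.4 and 49.9 CPM in untreated high fat ones. As with PLOD1, the 4 untreated ketogenic libraries of P4HA1 (chromosome 10, 73007217 to 73096974), the main catalytic subunit of prolyl hydroxylase, were above all others. P4HA1 was higher in untreated ketogenic than in untreated high fat metastases (log2 0.53, SE 0.13, adjusted p = 0.0154), a call that held with any 1 library compared left out and was lost without the libraries over 30% ribosomal RNA. It fell with inhibitors on the ketogenic diet (log2 -0.63, SE 0.13, adjusted p = 0.0257), a call lost without untreated ketogenic replicate 1, 2, 3 or 4 or ketogenic inhibitor replicate 4 (over 8 omissions log2 -0.79 to -0.53, adjusted p up to 0.0663). That call was also lost under 5 of 13 other settings, among them library size alone and only the 2 groups compared. P4HA2 had 55.7, 79.5, 94.8 and 103 CPM in ketogenic metastases with inhibitors, against 109, 139, 113 and 122 CPM in untreated ketogenic ones. P4HA2 reached 76.6, 78.5, 73.2 and 76.04 CPM in high fat metastases with inhibitors, against 79.2, 76.8, 70.3 and 108 CPM in untreated high fat ones. P4HA2 (chromosome 5, 132191838 to 132295315), the sister subunit, rose with the ketogenic diet in untreated metastases (log2 0.53, SE 0.16, adjusted p = 0.0385) and lost this call without untreated high fat replicate 1, 2 or 3 or untreated ketogenic replicate 1, 2, 3 or 4 (over 8 omissions log2 0.46 to 0.68, adjusted p up to 0.132). P4HA2 also lost it without the libraries over 30% ribosomal RNA and with ribosomal RNA as a covariate. Its difference with inhibitors on that diet did not pass (log2 -0.54, SE 0.16, adjusted p = 0.0928).

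SERPINH1 (chromosome 11, 75562056 to 75572783), the collagen chaperone, was lowest with inhibitors on the high fat diet. SERPINH1 had 176, 177, 174 and 219 CPM in ketogenic metastases with inhibitors, against 229.7, 201, 227 and 231 CPM in untreated ketogenic ones. SERPINH1 reached 129.7, 144, 145 and 147 CPM in high fat metastases with inhibitors, against 202, 207, 203 and 251 CPM in untreated high fat ones. Its 4 high fat libraries with inhibitors were below the other 12. SERPINH1 fell on the high fat diet (log2 -0.61, SE 0.10, adjusted p = 0.000264), a call that held with any 1 library compared left out and was lost with scaling by library size alone, and did not pass on the ketogenic diet (log2 -0.25, SE 0.10, adjusted p = 0.192). Under inhibitors the diets did not overlap, at a log2 difference of 0.40 (SE 0.10) that did not pass (adjusted p = 0.118). PLOD2, which hydroxylates the collagen telopeptides, rose on the high fat diet (log2 0.49, SE 0.17, adjusted p = 0.029) and lost this call without untreated high fat replicate 1 or 4 or high fat inhibitor replicate 1 or 2 (over 8 omissions log2 0.43 to 0.52, adjusted p up to 0.0712). The PLOD2 call was also lost without the libraries over 30% ribosomal RNA and with ribosomal RNA as a covariate. PLOD3 did not pass in any comparison.

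Of the lysyl oxidases, LOXL3 fell with inhibitors on the high fat diet (log2 -0.48, SE 0.15, adjusted p = 0.0178), a call lost without high fat inhibitor replicate 3 (over 8 omissions log2 -0.53 to -0.39, adjusted p up to 0.0652). This call was also lost with scaling by library size alone, without the libraries over 30% ribosomal RNA and with ribosomal RNA as a covariate. LOXL2 did not pass on the ketogenic diet (log2 -1.04, SE 0.32, adjusted p = 0.106) or on the high fat diet (log2 -0.76, SE 0.32, adjusted p = 0.0661). It had 35.2, 49.8, 33.4 and 25.6 CPM in ketogenic metastases with inhibitors, against 92.4, 59.3, 64.2 and 81.2 CPM in untreated ketogenic ones, without overlap. LOX, the founding member of the family, was near 1 CPM in all groups and did not pass.

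Among the glycoproteins and proteoglycans, VCAN (versican; chromosome 5, 83471465 to 83582303), a large chondroitin sulfate proteoglycan of loose matrix, fell on both diets. VCAN had 19.4, 45.3, 47.96 and 27.7 CPM in ketogenic metastases with inhibitors, against 63.6, 86.4, 67.98 and 83.9 CPM in untreated ketogenic ones. VCAN reached 29.4, 35.7, 26.9 and 27.7 CPM in high fat metastases with inhibitors, against 90.6, 87.02, 99.9 and 65.2 CPM in untreated high fat ones. No inhibitor library reached the lowest untreated one on either diet. It fell on the ketogenic diet (log2 -1.11, SE 0.23, adjusted p = 0.0235) and on the high fat diet (log2 -1.52, SE 0.23, adjusted p = 0.000164). The high fat call held with any 1 library compared left out and under 13 other settings, among them scaling by library size alone. The ketogenic call was lost without untreated ketogenic replicate 2 or 4 or ketogenic inhibitor replicate 4 (over 8 omissions log2 -1.29 to -0.90, adjusted p up to 0.076). It was also lost under 4 of the 13 other settings. These were only the 2 groups compared, no libraries over 30% ribosomal RNA, ribosomal RNA as a covariate and a 1.5-fold minimum.

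FBLN1 had 30.6, 20.4, 24.8 and 25.1 CPM in ketogenic metastases with inhibitors, against 43.9, 27.02, 45.9 and 46.1 CPM in untreated ketogenic ones. FBLN1 reached 23.1, 27.7, 18.99 and 17.9 CPM in high fat metastases with inhibitors, against 58.8, 54.5, 53.1 and 32.96 CPM in untreated high fat ones. FBLN1 (fibulin; chromosome 22, 45502238 to 45601135), which is found in basement membranes and elastic fibres, fell with inhibitors on the high fat diet (log2 -1.19, SE 0.20, adjusted p = 0.00036) without overlap, and on the ketogenic diet untreated replicate 2 lay among the inhibitor libraries and the difference did not pass (log2 -0.69, SE 0.20, adjusted p = 0.089). BGN had 30.4, 9.36, 11.0 and 8.92 CPM in ketogenic metastases with inhibitors, against 14.4, 6.20, 21.7 and 17.1 CPM in untreated ketogenic ones. BGN reached 16.1, 12.3, 11.4 and 10.2 CPM in high fat metastases with inhibitors, against 34.9, 27.8, 44.8 and 38.1 CPM in untreated high fat ones. BGN (biglycan; chromosome X, 153494939 to 153509554), a small proteoglycan that binds collagen, was higher in the 4 untreated high fat libraries than in any other library but ketogenic inhibitor replicate 1. It fell with inhibitors on the high fat diet (log2 -1.54, SE 0.40, adjusted p = 0.00704) and was lower in untreated ketogenic than in untreated high fat metastases (log2 -1.30, SE 0.40, adjusted p = 0.0437). The diet call was lost without untreated high fat replicate 1, 2, 3 or 4 or untreated ketogenic replicate 1, 2 or 4 (over 8 omissions log2 -1.53 to -1.04, adjusted p up to 0.113). It was also lost under 5 of 13 other settings, among them library size alone and a ribosomal RNA covariate.

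The microfibril protein FBN1 fell with inhibitors on the high fat diet, with 316, 241, 191 and 199 CPM, against 557, 562, 609 and 315 CPM untreated (log2 -1.11, SE 0.30, adjusted p = 0.008), where untreated replicate 4 lay just below the highest inhibitor library. This call was lost with scaling by library size alone and without the libraries over 30% ribosomal RNA. TGFBI, an adhesive glycoprotein induced by TGF-beta, fell there too (log2 -0.77, SE 0.26, adjusted p = 0.0274) and lost this call without untreated high fat replicate 1, 2 or 3 or high fat inhibitor replicate 1, 3 or 4 (over 8 omissions log2 -0.93 to -0.69, adjusted p up to 0.0784). Scaling by library size alone, leaving out the libraries over 30% ribosomal RNA or a ribosomal RNA covariate lost it too. On the ketogenic diet TGFBI did not pass (log2 -1.06, SE 0.26, adjusted p = 0.0534). SPARC, the most abundant gene of the set, had 6193 ± 487 CPM in ketogenic metastases with inhibitors, against 7794 ± 1199 CPM untreated, and 6206 ± 508 CPM in high fat metastases with inhibitors, against 7038 ± 1196 CPM untreated (SD, n = 4 each). Neither SPARC difference passed, and the glycoprotein TNC, the fibrillin FBN2 and the small collagen-binding proteoglycans DCN and LUM did not pass in any comparison.

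Chains that join in one molecule, or substitute for each other, were compared as ratios of counts within a library, which do not depend on the scaling between libraries. Over 10 pairs and 4 comparisons, 40 two-sided exact permutation tests of the log2 ratio were run, with pairs chosen when results for the single genes were known. The smallest p that 70 assignments of 4 against 4 libraries allow is 0.0286, which came to 0.0762 after adjustment over the 40, so none passed. COL4A1 over COL4A2 was 0.464, 0.739, 0.644 and 0.5998 in ketogenic libraries with inhibitors, against 0.687, 0.789, 0.644 and 0.630 in untreated ketogenic ones. COL4A1 over COL4A2 was 0.574, 0.628, 0.576 and 0.621 in high fat libraries with inhibitors, against 0.464, 0.483, 0.450 and 0.419 in untreated high fat ones. The mean ratio was lowest in untreated high fat metastases, without overlap with high fat inhibitor libraries (log2 difference 0.40, exact permutation p = 0.0286) or with untreated ketogenic ones (0.59, exact permutation p = 0.0286).

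COL5A1 over COL11A1 had geometric means of 0.0319 in ketogenic libraries with inhibitors, against 0.0490 in untreated ketogenic ones. In high fat libraries the geometric means were 0.0360 with inhibitors, against 0.0695 untreated. On both diets the groups did not overlap (exact permutation p = 0.0286 each). LAMB1 over LAMC1 was 0.984, 0.963, 0.958 and 0.985 in high fat libraries with inhibitors, against 1.56, 1.47, 1.45 and 1.41 in untreated high fat ones. COL6A1 over COL6A2 was 1.01, 1.04, 1.14 and 1.26 in high fat libraries with inhibitors, against 0.759, 0.742, 0.778 and 0.777 in untreated high fat ones. Both ratios were separate between these groups and overlapped between the ketogenic groups. LAMA5 over LAMA4 had geometric means of 0.0217 with inhibitors on the high fat diet, against 0.0600 untreated, without overlap. On the ketogenic diet the geometric means were 0.0238 with inhibitors, against 0.0291 untreated, with overlap.

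**Figure D5:**
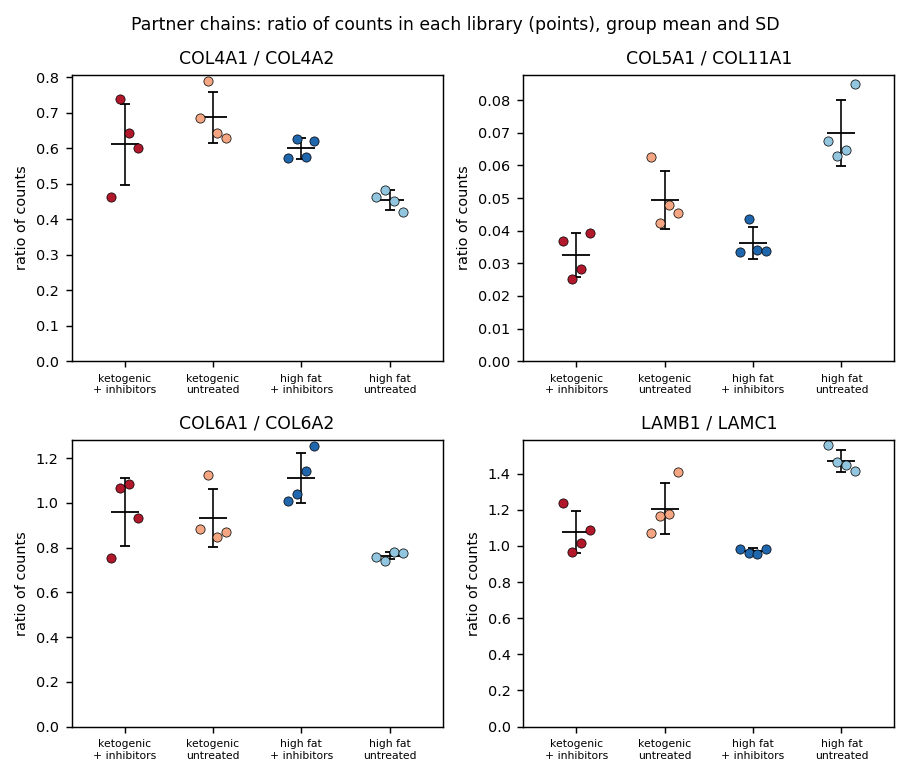
Ratio of counts of 4 pairs of chains in each library (points), with the group mean and SD, linear axes from 0; in each panel from left to right ketogenic with inhibitors, ketogenic untreated, high fat with inhibitors and high fat untreated. Untreated high fat libraries have the lowest mean COL4A1 to COL4A2 ratio, with values of 0.419 to 0.483, and the highest LAMB1 to LAMC1 ratio, 1.41 to 1.56.

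Another 77 matrix genes of the same pathways were listed, of which 71 were tested. With inhibitors on the high fat diet 29 of the 71 fell (21.7% of all genes fell) and 5 rose (20.6% of all genes rose), with a median log2 of -0.40, against -0.03 over all genes. These falls were 9 of 23 other collagen and laminin genes, 9 of 26 other glycoproteins and proteoglycans and 11 of 22 other processing genes. The deepest falls among genes of at least 1 CPM were those of COL15A1, a basement membrane zone collagen, with 4.87 CPM with inhibitors, against 44.1 CPM untreated (log2 -3.18, SE 0.43, adjusted p = 0.000111), and ACAN (aggrecan), with 234 CPM with inhibitors, against 891 CPM untreated (log2 -1.93, SE 0.26, adjusted p = 8.02e-05). The 4 untreated COL15A1 values were 27.2, 25.8, 30.2 and 93.2 CPM, and without the high replicate 4 its log2 was -2.51 (adjusted p = 3.72e-05). FMOD (fibromodulin), a collagen-binding proteoglycan, rose to 5.38 CPM, against 0.138 CPM untreated (log2 5.32, SE 0.48, adjusted p = 5.13e-06), and the syndecan SDC1 rose to 17.2 CPM, against 6.38 CPM untreated (log2 1.43, SE 0.22, adjusted p = 0.000192).

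On the ketogenic diet 3 of the 71 fell (0.887% of all genes fell) and 2 rose (0.856% of all genes rose) with inhibitors, with a median log2 of -0.14. COL13A1, a transmembrane collagen (log2 -1.75, SE 0.26, adjusted p = 0.00348), and the cross-linking transglutaminase TGM2 (log2 -1.59, SE 0.24, adjusted p = 0.00432) fell most. FMOD (log2 5.49, SE 0.46, adjusted p = 1.84e-05) and the prolyl hydroxylase P3H2 (log2 1.47, SE 0.18, adjusted p = 0.00109) rose. Between untreated metastases 12 fell (5.51% of all genes) and 3 rose (7.99% of all genes) with the ketogenic diet, with MATN2 (log2 -2.70, SE 0.60, adjusted p = 0.0101) and COL15A1 (log2 -1.87, SE 0.41, adjusted p = 0.0108) lowest and SDC1 (log2 1.61, SE 0.22, adjusted p = 0.00197) and SRPX (log2 0.43, SE 0.14, adjusted p = 0.0436) highest. MATN2 was low, at 0.162 CPM in untreated ketogenic metastases, against 1.08 CPM in untreated high fat ones. Without untreated high fat replicate 4 the COL15A1 value was -1.20 (adjusted p = 0.0132), and the SRPX call was lost in 6 of 8 omissions of a library (adjusted p up to 0.123). Under inhibitors 1 gene differed between diets, PCOLCE2, which aids procollagen cleavage (log2 0.68, SE 0.12, adjusted p = 0.0351; 0.169% of all genes differed), and this call too was lost in 6 of 8 omissions (adjusted p up to 0.132). The difference of inhibitor effects passed the test as positive for 13 of the 71 (4.36% of all genes) and as negative for 2 (4.66% of all genes). Among these MATN2 (log2 2.83, SE 0.83, adjusted p = 0.0436) and COL15A1 (log2 2.28, SE 0.58, adjusted p = 0.0307) stood at the high end and SDC1 (log2 -1.75, SE 0.31, adjusted p = 0.00814) and THBS1 (log2 -1.31, SE 0.28, adjusted p = 0.0163) at the low end. The MATN2 call was lost in 11 of 16 omissions of a library (adjusted p up to 0.104), and that of COL15A1 in 4 of 16 (adjusted p up to 0.0641), with a log2 of 1.60 (adjusted p = 0.0194) without untreated high fat replicate 4.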

How the data were processed

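Poly-A RNA of 16 libraries in 4 groups of 4 was measured. The authors deposited expected counts, that is counts estimated per gene symbol, unscaled. Per the submitters' processing notes the tools were RSEM 1.2.15 and Bowtie2 2.1.0 and the build hg38; neither annotation nor strand setting is named there. Values that were not whole, 13.0% of all, were rounded. Genes were filtered with filterByExpr, scaled with TMM and fitted with edgeR 4.0.16 (R 4.3.3) by robust quasi-likelihood, with the 16 libraries in 1 model of 4 group means (common biological coefficient of variation 0.228). P-values are two-sided, adjusted by Benjamini-Hochberg over 16012 genes, threshold 0.05, no fold minimum. Depths were 37099876 to 77251525 counts, and errors of levels are SDs over 4 libraries.

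The 46 genes, the lists of other matrix genes and markers, and the chain pairs were chosen with earlier results of these data known. All libraries are given for genes called in at least 2 of the 4 comparisons between groups, for the 4 of smallest p in each of the 5 comparisons and for the collagen IV pairs; other values shown per library, and the chain ratios, were chosen after they were seen. Of the other matrix genes, up to 2 of the highest and 2 of the lowest called fold changes per comparison with at least 1 CPM are named. Coordinates and exon lengths are from GENCODE 29. Alternatives were DESeq2 1.42.0, limma 3.58.1 voom, other scalings and filters, a replicate block, and libraries left out. The procedure was tested on simulated counts. Replicate numbers were not treated as pairs.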

Additional observations from a re-analysis of the deposited data

Results flagged for a closer look

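Of 180 group values tested (45 genes in 4 groups of 4), 14 held a library far from the other 3 of its group by Dixon's criterion; chance flags about 1 in 20 groups. Untreated high fat replicate 4 was such a library in 5 genes: COL6A3 at 136.2 CPM (others 7.56 to 17.1), COL6A1 at 533.2 CPM (335.0 to 361), SERPINH1 at 251.0 CPM (202 to 207), LOXL2 at 29.08 CPM (68.4 to 75.4) and TGFBI at 150.3 CPM (251 to 268). Untreated ketogenic replicate 2 was such a library in 3, with COL6A3 at 125.6 CPM (68.2 to 71.4), SERPINH1 at 200.6 CPM (227 to 231) and FBLN1 at 27.02 CPM (43.9 to 46.1), and untreated ketogenic replicate 4 in 1, with LAMA5 at 34.65 CPM (25.0 to 25.9). With inhibitors, ketogenic replicate 1 had COL3A1 at 4.517 CPM (1.68 to 2.15) and BGN at 30.36 CPM (8.92 to 11.0), ketogenic replicate 4 had SERPINH1 at 218.7 CPM (174 to 177), and high fat replicate 1 had P4HA1 at 48.72 CPM (55.6 to 56.9) and SERPINH1 at 129.7 CPM (144 to 147). SERPINH1 is the gene with such a library in all 4 groups. The 3 libraries least like their group carry 8 of the 14.

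COL6A2 differed in its inhibitor effect between diets, by 0.7987 on the log2 scale (ketogenic minus high fat; edgeR quasi-likelihood adjusted p = 0.0349). Its 4 high fat libraries with inhibitors were all below the 4 untreated ones, while ketogenic libraries with and without inhibitors overlapped. The call was lost in 8 of 16 omissions of a library and under 5 of 12 other settings. Among all genes 9.02% passed this contrast, against 1 of the 45.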

How the results depend on the processing

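The counts of the 45 genes called were 23 and 7 for the inhibitors on the high fat and ketogenic diets, 5 and 1 for the diets without and with inhibitors, and 1 for the difference of effects, and are given below in this order. DESeq2 called 24, 16, 12, 3 and 4, and limma voom with quality weights 33, 18, 18, 4 and 13. Scaling by library size alone gave 13, 2, 5, 0 and 0, a filter of 1 CPM in 4 libraries 23, 8, 8, 1 and 2, and a fit of only the groups compared 24, 1, 12 and 0. DESeq2 tested 46 genes and the filter of 1 CPM left 43. The fit of only the groups compared tested 44, 45, 45 and 44. Without the libraries over 30% ribosomal RNA the counts were 12, 3, 0, 0 and 0, with its share as a covariate 17, 0, 4, 0 and 0, and with a 1.5-fold minimum 5, 0, 0, 0 and 0. With each 1 of the 16 libraries left out they ranged over 15 to 24, 3 to 11, 3 to 11, 0 to 1 and 0 to 4. Without the 3 libraries least like their group, an alternative chosen after seeing the data, they were 27, 9, 16, 1 and 5. In these edgeR fits the counts of 0 stand beside 1 to 14 genes with an unadjusted p under 0.05. RLE factors left all 5 counts as they were. The cause of these changes was not tested. On both diets every inhibitor library had a lower share of ribosomal RNA than any untreated one. A fit with that share as a covariate cannot separate it from the inhibitors. PLOD1 on the high fat diet reversed to 0.0206 (adjusted p = 0.934) with library size alone, where the median of all genes moved to 0.25. Of 37 calls, 20 held with every single library of the comparison left out.

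The fit with the replicate number as a replicate block called 23, 9, 8, 1 and 2. Same-numbered libraries deviated together in 7 of 24 pairs (correlation over 0.1; range -0.31 to 0.38), and 5 of 16 libraries correlated best with their own number, so the numbers were not taken to pair samples. Depth limits LOXL1, COL4A6 and FBN2, and the share of mouse reads in any gene was not measured.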
